A study of Pimephales promelas with 20 samples.

Results

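The brightest transcripts of control female liver were followed here across an exposure to phenanthrene. They are the 150 probes with the highest mean log2 signal over the 5 control arrays, out of 15208 probes for fish sequences on the array, or 0.986% of them. They were selected on the measured signal of the control arrays, so their brightness in controls is a description, and so are their differences from controls, for which no test is offered as support. The next 150 probes by the same mean serve as the nearest comparison.

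The series measured liver RNA on 20 one-colour Agilent arrays from females of the fathead minnow, Pimephales promelas, a freshwater fish common in toxicity tests. The fish were exposed for 48 h to 0, 29, 287 or 1006 ng/L phenanthrene, which is a polycyclic aromatic hydrocarbon present in crude oil, with 5 arrays per concentration. Phenanthrene is the only agent that the labels name, and its concentration is the only labelled difference between the groups; strain, age and genotype are not stated in the labels. Whether each array held the RNA of a separate fish is not labelled. The p-values below therefore speak of the spread among arrays alone, and that spread could be technical.

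Liver RNA is dominated by a small number of very abundant transcripts. In fishes, as in other vertebrates, they include messages for secreted plasma proteins such as transferrin, apolipoproteins, fibrinogen and complement, and messages for ribosomal and mitochondrial proteins. In egg-laying females the liver also makes vitellogenin, the yolk precursor, under the control of oestrogen. None of these names can be attached to a probe here: in the files a probe has an identifier and the number of a contig or sequence, and 0 matched a table of 64593 genes of this species. The tissue label could therefore not be set against liver markers, and the planned lists of liver genes could not be counted. Probes are given by identifier, and no gene or role is assigned to any of them. Probes also differ in how well they bind their targets, so a brighter probe does not show a more abundant transcript.

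The deposited log2 values, called loess normalized in the sample titles, are used throughout unless the scanner signal is named. The 150 probes had control means between 15.10 and 18.90 with a median of 16.61, against a median of 5.39 over all 15208 probes. The highest of these means stood 13.9-fold above the lowest on the linear scale. All 150 were well above background on all 20 arrays, as marked by the scanner software, and all entered the tests, which covered 10867 probes. The border at rank 150 lay in a continuous range. Just inside it, UF_Ppr_AF_101612, UF_Ppr_AF_116901 and UF_Ppr_AF_115082 had control means of 15.13, 15.11 and 15.10. Just outside it, UF_Ppr_AF_112890, UF_Ppr_AF_111978 and UF_Ppr_AF_117152 had means of 15.08, 15.08 and 15.06. Ranking by the control median in place of the mean kept 144 of the 150, ranking by the mean of all 20 arrays kept 141, and ranking by the scanner signal after cyclic loess kept all 150.

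One array stood apart before any comparison, and 2 others had a dim region. On 29 ng/L replicate 22 the scanner marked 8 spots as saturated, the only such spots of the series, and all 8 belonged to the 150, at ranks 1, 5, 6, 8, 12, 13, 14 and 29. Their deposited values on that array lay between 17.30 and 17.78, and the highest of all 150 there was 17.78, against 18.53 to 19.63 on the other 19 arrays. A saturated spot has only a lower bound. The 3 spots of the 150 that the software marked as outliers were also on this array. Each array was divided into 96 blocks by position, with the scanner signal after cyclic loess. A block was dim where tested probes fell on average more than 0.5 below their usual log2 level. On 287 ng/L replicate 36 there were 10 such blocks and on 1006 ng/L replicate 42 there were 8, and no other array held any. These blocks held 17 of the 150 on the first array and 10 on the second. In the deposited values these members had a median log2 deviation of -2.49 and -0.73. The other members deviated there by a median of 0.13 and 0.15. Shares, spreads and medians that these 3 arrays move are given with and without them below.

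The 150 probes held most of the signal. In controls they took 63.8%, 61.6%, 65.3%, 62.3% and 64.8% of the summed linear signal of all 15208 probes on replicates 3, 4, 5, 6 and 7, a mean of 63.6% ± 1.58 (SD, n = 5). At 29 ng/L they took 53.2%, 64.2%, 64.1%, 62.3% and 61.9% on replicates 22 to 26, with a mean of 61.1% ± 4.55 (SD, n = 5). The low value was that of the array with saturated spots, and without it the mean was 63.1%. That array was low only in normalized values. It held 67.2% in the scanner's processed signal, 52.7% after cyclic loess of that signal and 51.1% with normexp. The part of saturation in the low value was not tested. At 287 ng/L the share was 65.1%, 63.6%, 63.4%, 63.3% and 64.8% on replicates 27, 32, 35, 36 and 38, a mean of 64.0% ± 0.842 (SD, n = 5). At 1006 ng/L it was 67.6%, 64.6%, 63.2%, 63.4% and 59.4% on replicates 41, 42, 44, 45 and 46, a mean of 63.7% ± 2.96 (SD, n = 5). The ranges of the 4 groups overlapped one another. The group means lay between 61.1% and 64.0%, within 1 SD of the controls except at 29 ng/L. No p-value is given for this share, because the members were chosen with the control values known. In these bulk samples fewer cells of a type and less RNA per cell cannot be told apart.

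**Figure D1:**
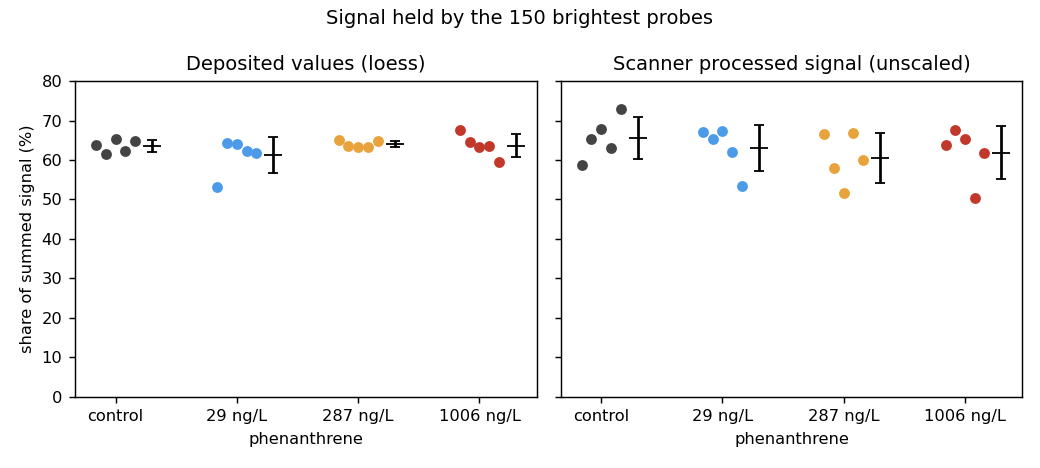
Percent of the summed linear signal of all probes that the 150 brightest probes held on each array (points), by phenanthrene concentration, with the mean and SD of 5 arrays (black), from the deposited values (left) and from the unscaled scanner signal (right). Deposited shares lie between 59.4% and 67.6% on 19 arrays and at 53.2% on 29 ng/L replicate 22; scanner shares range from 50.3% to 73.0%.

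The share differed between the deposited values and the scanner signal. In the scanner's processed signal, before any scaling between arrays, it ran from 50.3% on 1006 ng/L replicate 45 to 73.0% on control replicate 7, with group means of 65.6%, 63.0%, 60.5% and 61.8% from control to 1006 ng/L. The 5 arrays with the highest 75th percentile of signal, 374 to 684 intensity units, had scanner shares of 50.3% to 59.9%. The other 15 arrays, with 75th percentiles of 151 to 368, had 58.7% to 73.0%. In the deposited values the same 5 arrays had 61.9% to 64.8%, inside the range of the others. The part of array brightness in the scanner shares was not tested.

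Within the 150, signal was spread over many probes. The brightest took between 1.35% and 2.51% of the deposited signal on 19 arrays and 0.503% on 29 ng/L replicate 22. The 10 brightest took 9.45% to 14.4% on those 19 arrays and 5.44% on that one. Between 66 and 111 probes were needed to reach 50% of the signal of an array, and the 111 belonged to the same array. The next 150 probes took far less, between 8.95% and 15.1%.

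UF_Ppr_AF_109972 was the brightest probe of the controls, with log2 values of 19.57, 18.65, 18.75, 18.65 and 18.90 on replicates 3 to 7. It read 17.30, 18.79, 18.58, 18.97 and 19.08 at 29 ng/L, 18.73, 18.96, 19.63, 18.65 and 19.19 at 287 ng/L, and 19.32, 18.57, 19.16, 19.45 and 18.53 at 1006 ng/L. The groups overlapped throughout, and the lowest value was the saturated spot of 29 ng/L replicate 22. It ranked first in the mean of every group, and its control mean was 18.90 ± 0.385 (SD, n = 5).

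UF_Ppr_AF_102718 followed in second place in all 4 groups, with means of 18.58 ± 0.457, 18.39 ± 0.538, 18.68 ± 0.463 and 18.63 ± 0.390 (SD, n = 5 each) from control to 1006 ng/L. UF_Ppr_AF_107896 averaged 18.29 ± 0.455 (SD, n = 5) in controls and 17.93, 18.27 and 17.81 at the rising concentrations, and it ranked 15th in the last. Its highest control, 19.04, was on replicate 3, which also gave the highest control value of each of the other 4 probes at the top. UF_Ppr_AF_105655 averaged 18.20 ± 0.233 in controls and 18.06, 18.41 and 18.18 at the rising concentrations. UF_Ppr_AF_116431 averaged 18.19 ± 0.274 and then 18.04, 18.25 and 18.40. For all 5 probes the range of each exposed group overlapped that of the controls.

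Most of the 150 stayed at the top at every concentration. Of the 150, 139 were also among the 150 brightest by the mean at 29 ng/L. The same held for 135 at 287 ng/L and for 136 at 1006 ng/L, and 130 were so in all 4 groups. Within the 300 brightest of all 4 means there were 147. On single arrays, between 122 and 139 of the 150 were among that array's own 150 brightest, and 87 were so on all 20. The lowest, 122, was on 29 ng/L replicate 22. On 287 ng/L replicate 36 and 1006 ng/L replicate 42, which had dim blocks, 127 and 131 were. The counts in this paragraph include these arrays and were not repeated without them. The exceptions were few: 8 probes were outside the 150 brightest in the mean of all 3 exposed groups. Of these, UF_Ppr_AF_104891 went from rank 141 in controls to 454, 412 and 308, and UF_Ppr_AF_101592 from 124 to 618, 424 and 507. The controls chose the list, so some loss of rank in any other arrays is built in, and its part was not tested.

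In the deposited values the median spread of the 150 between arrays was smaller than that of dimmer probes, as a description with no test. The median SD between the 5 controls was 0.264 log2 units, against 0.421 for the next 150 probes and 0.576 for all tested probes. Since the controls chose the members, the exposed groups are the independent measurement. There the median SD of the 150 was 0.358, 0.370 and 0.355 from the lowest to the highest concentration. It was 0.560, 0.511 and 0.463 for the next 150 probes, and 0.776, 0.559 and 0.688 for all tested probes. An SD above 1 was found for 6 of the 150 in controls (4%, against 18.9% of all tested probes), 10 at 29 ng/L (6.67% against 32.6%), 20 at 287 ng/L (13.3% against 20.4%) and 7 at 1006 ng/L (4.67% against 25.7%). The count of 20 rested in part on 287 ng/L replicate 36. Without that array it was 12, and the median SD at 287 ng/L fell from 0.370 to 0.266; 9 of the 20 lay in its dim blocks. Without 29 ng/L replicate 22 the median SD at 29 ng/L was 0.241. The contrast with dimmer probes depended on the processing, seen here in another measure, limma's SE of a difference. That SE pools the spread within all groups and moves it towards that of other probes, so it is not an SD of 1 group. For 29 ng/L against control its median in the deposited values was 0.267 for the 150 and 0.450 for all tested probes. With 75th percentile scaling it was 0.493 and 0.475. With normexp it was 0.237 and 0.259, and after cyclic loess of the scanner signal 0.275 and 0.447.

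**Figure D2:**
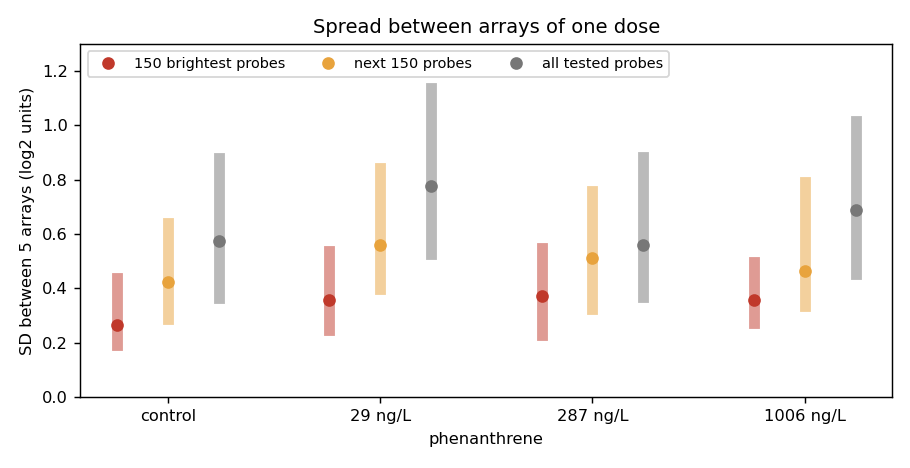
SD between the 5 arrays of each group in the deposited values, in log2 units, for the 150 brightest probes, the next 150 probes and all 10867 tested probes. Points are medians over probes and bars run across the interquartile range; the 150 have the lowest median in each group, 0.264 to 0.370.

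UF_Ppr_AF_102717 was the steadiest of the 150 in controls, with 15.70, 15.76, 15.74, 15.65 and 15.80 and an SD of 0.0567. It was selected here for that low SD, so a wider spread elsewhere is built in. It read 16.53, 16.28, 16.08, 15.78 and 16.18 at 29 ng/L, 16.04, 16.20, 16.02, 16.35 and 16.01 at 287 ng/L, and 16.29, 16.31, 16.14, 16.38 and 15.91 at 1006 ng/L. All arrays at 287 and 1006 ng/L lay above all controls, by a mean of 0.39 and 0.48 log2 units. The narrow control range for which it was picked makes such a separation easier. The adjusted p by limma was 0.967 and 0.328. UF_Ppr_AF_106940 was next, at 17.13, 17.12, 17.24, 17.07 and 17.12 in controls, an SD of 0.0634. Its means were 17.28, 17.37 and 17.37 at the 3 concentrations, and all 3 exposed groups reached both above and below the control range.

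A few of the 150 varied widely in every group. Over the 20 arrays the range of a probe had a median of 1.53 log2 units, was under 1 for 27 probes, over 2 for 52 and over 4 for 13. An SD above 1 was found in no group for 125 probes, in 1 for 16, in 2 for 4, in 3 for 1 and in all 4 groups for 4. These 4 were UF_Ppr_AF_115272, UF_Ppr_AF_107325, UF_Ppr_AF_101592 and UF_Ppr_AF_104891, with ranges of 7.40, 5.71, 9.75 and 9.49; UF_Ppr_AF_107325 is named here after its values were seen. None of the 4 lay in a dim block of either array.

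UF_Ppr_AF_115272 had the highest SD between controls, 2.82, with values of 12.48, 14.52, 18.40, 18.13 and 18.83 on replicates 3 to 7. It read 16.28, 18.41, 18.18, 15.11 and 12.16 at 29 ng/L, 18.32, 11.62, 14.40, 18.58 and 12.52 at 287 ng/L, and 19.02, 17.86, 18.87, 14.60 and 18.07 at 1006 ng/L. Each group held arrays above 18 and at least 1 array below 15, so it was among the brightest probes of the liver on some arrays and far from them on others in every group. Its mean at 1006 ng/L was the most above the controls of all 150, by 1.21 with an SE of 1.54, and the groups overlapped.

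UF_Ppr_AF_115272 shared the first number of its contig name, 85, with UF_Ppr_AF_104772, also one of the 150. The latter read 17.18 to 18.19 over the same 20 arrays with an SD of 0.278. The correlation of the pair over these arrays was -0.485. The deposited names do not say whether the 2 probes target the same transcript. In the 4 other pairs of members that shared this first number, the SD of either probe over the 20 arrays was between 0.210 and 0.597. Their correlations lay between 0.266 and 0.828.

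UF_Ppr_AF_104891 had the second highest SD between controls, 2.43, with values of 11.54, 14.71, 18.13, 16.02 and 16.08. It read 9.46, 15.52, 13.77, 13.29 and 10.59 at 29 ng/L, 8.63, 14.57, 14.22, 15.77 and 10.59 at 287 ng/L, and 17.74, 13.41, 12.91, 11.18 and 11.73 at 1006 ng/L. Every group overlapped the controls, from which the means differed by -2.77, -2.54 and -1.90 with an SE of 1.53.

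UF_Ppr_AF_101592 had control values of 16.46, 16.28, 12.84, 16.24 and 16.24. It read 8.75, 15.69, 6.99, 13.80 and 14.49 at 29 ng/L, 9.14, 15.45, 15.61, 12.61 and 10.77 at 287 ng/L, and 10.49, 14.23, 8.71, 16.74 and 11.37 at 1006 ng/L. The other 4 controls lay close together, while the exposed arrays reached from 6.99 to 16.74. The means lay below the controls by the most of all 150 at each concentration, with differences of -3.67, -2.89 and -3.30 and an SE of 1.72.

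UF_Ppr_AF_101612 had the second most positive difference at 1006 ng/L. Its controls read 14.79, 14.70, 14.86, 15.62 and 15.66, against 17.74, 15.42, 16.61, 13.62 and 16.90 at 29 ng/L, 16.07, 16.86, 16.55, 16.87 and 16.31 at 287 ng/L, and 16.15, 16.19, 16.17, 15.45 and 16.81 at 1006 ng/L. All arrays at 287 ng/L were above all controls, while 1 array at 1006 ng/L and 2 at 29 ng/L were not. The differences were 0.93, 1.40 and 1.02 with an SE of 0.54, or 1.91-fold, 2.65-fold and 2.03-fold. At 287 ng/L the adjusted p by limma was 0.911. It sat at rank 148, close to the border at which members were taken.

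**Figure D3:**
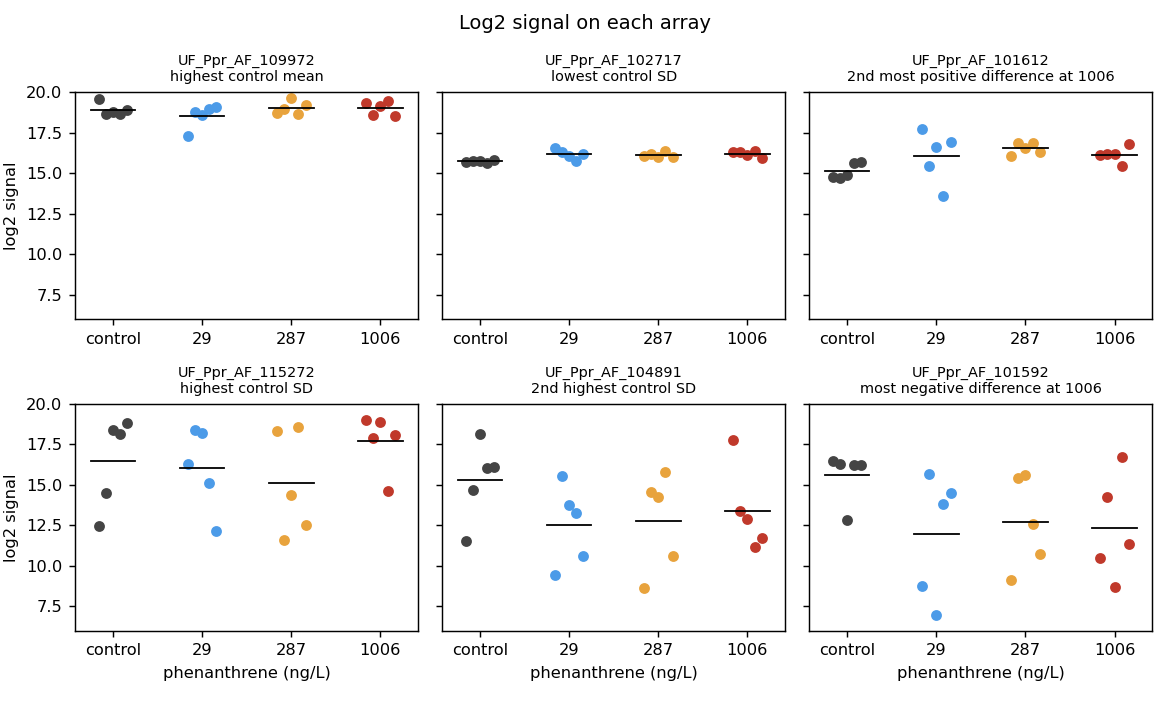
Log2 signal on each array (points) and group mean (line) of 6 of the 150 brightest probes by phenanthrene concentration. UF_Ppr_AF_102717 keeps between 15.65 and 16.53 and UF_Ppr_AF_109972 between 17.30 and 19.63, while UF_Ppr_AF_115272, UF_Ppr_AF_104891 and UF_Ppr_AF_101592 spread over 7.40 to 9.75 log2 units.

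The values of the controls that chose the members are one arm of every contrast with controls, so the counts in those contrasts are a description and nothing is read from them. With limma, 0 of the 150 had an adjusted p under 0.05 at any concentration, and of all tested probes it called 0% at both lower concentrations and 0.248%, or 27 probes, at the highest. With slide as a fixed block the 27 became 4, and with scan session as a fixed block 21. Slide 1 held only 287 ng/L replicate 36 and slide 5 only 29 ng/L replicate 25. The fixed slide block took up both arrays, so its count cannot separate slide from that loss. With slide as a random block the 27 calls stayed 27. Within slide 3 and within slide 4 they became 0. Those fits held fewer arrays per group, so their counts cannot separate slide from the loss of arrays. At an unadjusted p under 0.05 the counts were 5 of 150 at 29 ng/L (5.37% of all tested probes), 2 at 287 ng/L (5.18%) and 16 at 1006 ng/L (12.8%). An ordinary linear model also called 0 of the 150 in each. In the deposited values the median SE of a difference at 29 ng/L was 0.267 for the 150 and 0.450 for all tested probes.

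The median log2 difference of the 150 from controls was 0.05, 0.14 and 0.14 from the lowest to the highest concentration, against 0.00, 0.02 and -0.04 over all tested probes. Of the 150, 86, 105 and 98 had a difference above 0 (50.2%, 51.9% and 47.5% of all tested probes). At 1006 ng/L, 4 of the 16 with an unadjusted p under 0.05 were higher and 12 lower (6.59% and 6.22% of all tested probes), and 2 were over 2-fold higher and 8 over 2-fold lower (9.04% and 7.45% of all tested probes). The next 150 probes had a median of -0.22 at 1006 ng/L. These signs depended on the scaling. After cyclic loess of the scanner signal the medians of the 150 were -0.05, -0.03 and 0.21, and with scaling to the 75th percentile they were 0.09, -0.41 and -0.36, where the median of all tested probes at 1006 ng/L was itself -0.21. Within slide 3 the deposited medians were 0.00, 0.08 and 0.33, within slide 4 they were 0.15, 0.13 and 0.11, and within scan session 1, 0.07, 0.09 and 0.21.

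**Figure D4:**
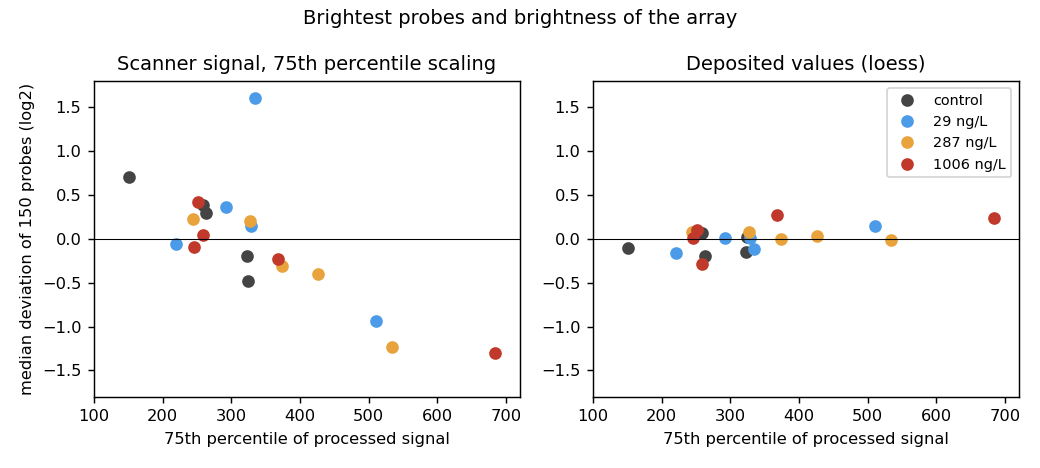
Median deviation of the 150 brightest probes, each from its own median over the 20 arrays, in log2 units, against the 75th percentile of the scanner's processed signal on each array (intensity units), for 75th percentile scaling (left) and the deposited values (right). Deviations run from -1.30 to 1.60 on the left, with the lowest on the brightest array, and from -0.29 to 0.28 on the right.

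Few of the 150 had an exposed group wholly outside the control range. At 29 ng/L these were UF_Ppr_AF_109307 and UF_Ppr_AF_118035 above it and UF_Ppr_AF_105039 below it, that is 2 and 1 of 150, beside 0.386% and 0.423% of all tested probes. At 287 ng/L they were UF_Ppr_AF_102717 and UF_Ppr_AF_101612 above and UF_Ppr_AF_106464 below (1.21% and 0.396% of all tested probes). At 1006 ng/L only UF_Ppr_AF_102717 was above and none was below (2.32% and 1.23%). The identifiers outside the naming rule were chosen after their values were seen. UF_Ppr_AF_118035 differed most among them at 29 ng/L: it read 17.35, 17.53, 17.65, 17.32 and 16.68 there, 16.26, 15.69, 16.56, 15.70 and 15.90 in controls, 15.41 to 16.80 at 287 ng/L and 14.94 to 16.85 at 1006 ng/L. Only the lowest concentration stood above the controls for this probe, with a difference of 1.29 and an SE of 0.35. Its adjusted p by limma was 0.878. The differences at 287 and 1006 ng/L were -0.06 and -0.16.

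The design asks whether expression changes with concentration. The differences of means among the 3 exposed groups used none of the arrays that chose the members. The SEs and p-values of these contrasts did use them, because the model took its spread from all arrays, controls included. Here limma called 0 of the 150 in 287 against 29 ng/L (0% of all tested probes), 0 in 1006 against 29 ng/L (0.0092%, or 1 probe) and 0 in 1006 against 287 ng/L (0%). At an unadjusted p under 0.05 the counts were 6, 9 and 10 of 150, or 4%, 6% and 6.67%, beside 4.09%, 8.59% and 4.9% of all tested probes. These counts depended on the processing. They were 5, 17 and 12 after cyclic loess of the scanner signal (461, 968 and 517 of all 10867 probes), 7, 17 and 1 with scaling to the 75th percentile (453, 883 and 667), and 7, 31 and 19 with normexp (508, 901 and 534). No member passed the adjusted threshold under any of them. In 1006 against 29 ng/L the share of the 150 was below that of all tested probes in the deposited values and above it under each of these alternatives. In 1006 against 287 ng/L it was above that of all tested probes except with scaling to the 75th percentile. In the deposited values all 9 in 1006 against 29 ng/L were lower at 1006 ng/L and 0 higher. Of all tested probes 4.72% were lower and 3.86% higher, and of the next 150 probes 21 and 1. Directions were not counted under the alternatives. The ordinary linear model called 0 of the 150 in each contrast. The lowest adjusted p of a member by limma was 0.999, 0.332 and 0.903. The controls entered these values through the spread. In 1006 against 29 ng/L the lowest was 0.329 without control replicate 3 and 0.399 without control replicate 7 (limma). A trend over the rank of the 3 concentrations is with equal groups the same test as 1006 against 29 ng/L, and it gave the same 0 of 150 (0.0092% of all tested probes), with the same 9 at an unadjusted p under 0.05.

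The median log2 difference of the 150 was 0.08 in 287 against 29 ng/L, 0.10 in 1006 against 29 ng/L and 0.06 in 1006 against 287 ng/L, against 0.05, 0.01 and -0.03 over all tested probes. The typical size of a difference in 1006 against 29 ng/L, taken as the median without its sign, was 0.247 for the 150, 0.338 for the next 150 probes and 0.388 for all tested probes. Over 2-fold differences in that contrast were found for 1 member upward and 9 downward (6.02% and 5.95% of all tested probes). The 1 upward was UF_Ppr_AF_115272, by 1.65 with an SE of 1.54. The medians depended on the scaling: for the same 3 contrasts they were 0.00029, 0.24 and 0.28 after cyclic loess of the scanner signal, -0.49, -0.46 and 0.08 with scaling to the 75th percentile, and -0.0100, 0.14 and 0.15 with normexp. Single arrays moved them too. In 287 against 29 ng/L the median was 0.02 without 29 ng/L replicate 25. In 1006 against 29 ng/L leaving out that array gave 0.04, and leaving out replicate 22 of the same group gave 0.06. Of the 1006 ng/L arrays, removal of replicate 41 or 45 each gave 0.06 there and removal of replicate 46 gave 0.17. The median in 1006 against 287 ng/L turned to -0.0067 when replicate 36 of the 287 ng/L group was removed, and was 0.03 when replicate 38 was. Removal of 1006 ng/L replicates 41, 42, 45 and 46 in turn gave -0.0070, 0.02, -0.0067 and 0.15 in that contrast. Within slide 3 the medians were 0.06, 0.27 and 0.25, and within slide 4 they were -0.0052, -0.02 and -0.02.

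**Figure D5:**
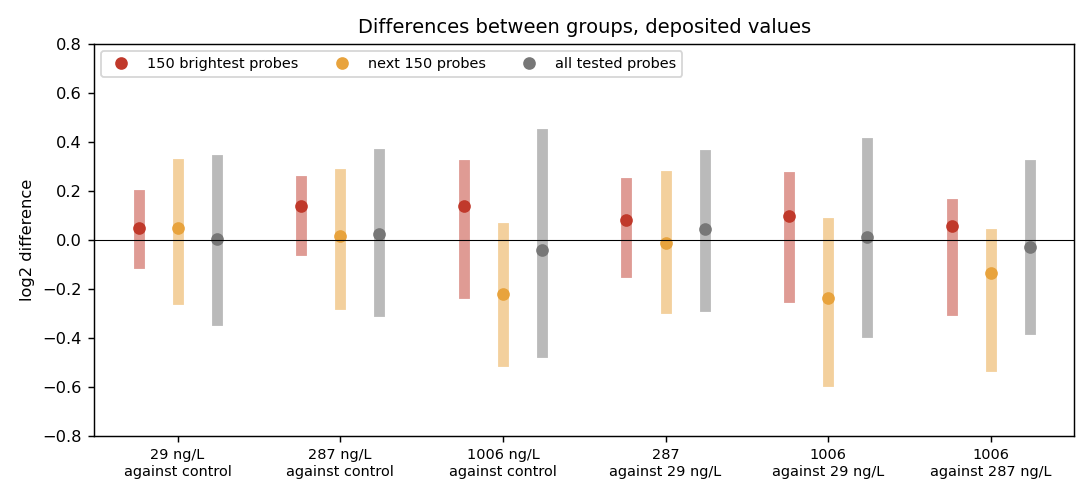
Log2 differences between groups in the deposited values for the 150 brightest probes, the next 150 probes and all 10867 tested probes. Points are medians over probes and bars run across the interquartile range; the medians of the 150 lie between 0.05 and 0.14 in these values and the bars of all tested probes include 0 in each.

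Between 1006 and 29 ng/L, 5 of the 150 had groups that did not overlap, all 5 lower at 1006 ng/L and 0 higher, beside 0.515% and 0.46% of all tested probes. They were UF_Ppr_AF_108434, UF_Ppr_AF_113291, UF_Ppr_AF_111099, UF_Ppr_AF_115045 and UF_Ppr_AF_109734, chosen after their values were seen. None of them passed the test, with adjusted p by limma from 0.332 to 0.646. No member had separate groups in 287 against 29 ng/L (0.35% of all tested probes higher, 0.175% lower) or in 1006 against 287 ng/L (0.368% and 0.571%).

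UF_Ppr_AF_115045 had the lowest unadjusted p of these, 0.00036 (limma). It read 16.89, 16.01, 16.55, 15.72 and 16.19 at 29 ng/L and 14.29, 15.16, 14.24, 15.30 and 15.56 at 1006 ng/L, with 15.88, 16.10, 15.31, 16.52 and 16.38 at 287 ng/L and 15.65, 15.61, 15.31, 15.97 and 15.78 in controls. The array with the highest value at 29 ng/L was replicate 22. The difference between 1006 and 29 ng/L was -1.36 with an SE of 0.32 and an adjusted p of 0.332 (limma), and the probe was not in a dim block on either affected array.

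UF_Ppr_AF_109734 read 17.32, 14.95, 15.62, 15.28 and 14.99 at 29 ng/L and 14.04, 14.91, 14.11, 13.18 and 14.44 at 1006 ng/L. The highest value at 29 ng/L, 17.32, was on replicate 22. The difference of -1.50, with an SE of 0.45, thus rested in part on that array. The closest values of the groups were 14.95 and 14.91. UF_Ppr_AF_113291 differed by -1.18 with an SE of 0.47, and its groups were separated by 15.89 against 15.67. UF_Ppr_AF_111099 differed by -0.48 with an SE of 0.27, and its groups were separated only by 15.65 against 15.63. Its spot on 29 ng/L replicate 22 was marked as an outlier and left out, so 4 arrays stood at 29 ng/L. UF_Ppr_AF_108434 differed by -1.27 with an SE of 0.66, and its groups all but touched, at 15.881 against 15.88. It lay in the dim blocks of both 287 ng/L replicate 36, where it read 12.44, and 1006 ng/L replicate 42, where it read 14.66.

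The names of the 150 differed in kind from those of the whole array. Of the 150, 133 carried a name starting with FJU and a contig number (88.7%, against 73.9% of all probes), 16 a name starting with FJU_SB_30 (4.05% of all probes), and 1 a sequence number starting with gi (0.667% against 21.8%). The next 150 probes held 134, 5 and 8 of these. The 16 included the brightest and second brightest probes and 3 of the first 10, and their median control SD was 0.313 against 0.259 for the other 134. Names marked rc were 13 of the 150, or 8.67%, against 21.4% of all probes and 20, or 13.3%, of the next 150. The labels do not say what these prefixes stand for, and a probe's name was not used to choose it.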

How the data were processed

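Liver RNA of 20 samples was hybridised to one-colour Agilent arrays and read with Agilent Feature Extraction 10.7.1.1, per the file headers. The deposited scanner files hold intensity values per spot; per the file headers, background and a spatial trend had already been taken off the processed intensity. The authors also deposited a table of log2 values, loess normalized per the labels, which is the main source here; its loess settings, and any centring, are not given in the sources consulted. All 20 sample columns matched their own array best (lowest r 0.992 to log2 processed signal), so higher means brighter. Column medians lay between 5.39 and 5.69. Its 1 column of no sample was not used, and its 714 missing values were all on 287 ng/L replicate 36, none among the 150.

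Groups came from the dose label. Members were ranked by the control mean; shares are of the summed linear signal of all 15208 probes. In R 4.3.3 with limma 3.58.1 (lmFit, eBayes) all 20 arrays entered 1 model of group means, with outlier spots set to missing and saturated spots kept. It covered the 10867 probes (71.5%) marked well above background on 4 or more arrays in any group, with two-sided p-values adjusted over all of them by Benjamini-Hochberg at 0.05. The number of arrays limits the precision. The fit was also run on simulated arrays with independent normal noise and no dim regions, saturation or slide effects. That run therefore cannot show how the fit handles those features. Alternatives were the scanner signal with cyclic loess or 75th percentile scaling, normexp (offset 50, on the median spot signal), no filter, flagged spots kept, slide or scan session as a block, values within a slide or session, an ordinary linear model, other rules for membership, and each array left out.

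The members and lists were chosen with earlier results of these data known. The naming rule gave identifiers only: the 5 brightest, the 2 most and 2 least variable in controls, at most 2 with the most positive and 2 with the most negative difference at 1006 ng/L, and the 3 on each side of the border.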

Additional observations from a re-analysis of the deposited data

Results flagged for a closer look

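Of 56 sets of 5 arrays examined, in shares and named probes, 7 held an array whose gap to its nearest neighbour exceeded 0.71 of the range of the set. Chance gives about 1 in 20 for independent sets that were not picked by their values. Here the sets shared arrays and some probes were named for extreme values, so 7 of 56 cannot be set against that rate. On 29 ng/L replicate 22 the deposited share of the 150 was 53.2%, where the rest of its group had 61.9% to 64.2%. In the scanner's processed signal the share on that array was 67.2%. On that array UF_Ppr_AF_109972 read 17.30 against 18.58 to 19.08, UF_Ppr_AF_102718 read 17.45 against 18.49 to 18.78, and UF_Ppr_AF_107896 read 17.40 against 18.01 to 18.18. Of these 3 spots only that of UF_Ppr_AF_109972 was marked as saturated. UF_Ppr_AF_109972 also read 19.57 on control replicate 3, against 18.65 to 18.90 on the other controls. On 1006 ng/L replicate 45 UF_Ppr_AF_115272 read 14.60, where the others of its group had 17.86 to 19.02. UF_Ppr_AF_101592 read 12.84 on control replicate 5, against 16.24 to 16.46 on the other controls.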

How the results depend on the processing

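Among the exposed groups, 0 of the 150 were called in any of the 3 contrasts or the trend under 33 alternative settings each; the lowest adjusted p of a member (limma) was 0.0693, in 1006 against 29 ng/L with 1 array left out. The contrasts with controls also gave 0 in each setting, but their control arm chose the members. Over all probes the 27 calls at 1006 ng/L stayed 27 with slide as a random block and became 21 with scan session as a fixed block. They became 12 with 75th percentile scaling. With slide as a fixed block, which took up the 29 and 287 ng/L arrays alone on their slides, they became 4. In fits with fewer arrays per group they became 1 within scan session 1 and 0 within slide 3 or 4. They ran from 3 (without control replicate 3 or 7) to 63 (without 29 ng/L replicate 26) with 1 array left out, and in 1006 against 29 ng/L from 0 to 25. No paired analysis was possible because the groups share no replicate numbers. The share of signal depended on normalization and on how many probes were taken. After cyclic loess of the scanner signal it was 62.5% at 287 ng/L. With 75th percentile scaling it was 65.6% in controls and 60.5% at 287 ng/L, by construction the values of the unscaled scanner signal, since a factor per array leaves a share as it is. With normexp it was 60.9% in controls and 60.1% and 60.7% at the upper 2 concentrations. The 100 brightest held 53.8%, 50.9%, 54.6% and 54.9% from control to 1006 ng/L, and the 300 brightest 75.7%, 73.3%, 75.7% and 73.9%. The median log2 difference at 287 ng/L was -0.034 after cyclic loess of the scanner signal, -0.41 with 75th percentile scaling, -0.051 with normexp and 0.10 over 300 probes; at 1006 ng/L it was -0.36 with 75th percentile scaling. The median control SD became 0.546 with that scaling. The cause was not tested. Leaving out 1 array gave shares of 63.2% to 64.1% in controls and 60.4% to 63.1%, 63.8% to 64.2% and 62.7% to 64.7% at the rising concentrations. It gave median differences from controls of -0.0042 to 0.07, 0.10 to 0.19 and 0.09 to 0.25 at the 3 concentrations, and a median control SD of 0.226 to 0.285. Leaving out the 2 arrays with a dim region, and giving spreads without single arrays, were chosen after seeing the data. Signal over background did not limit the 150; saturation bounds 8 spots.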
